A study of Mus musculus with 4 samples.

Results

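The ribosomal protein genes studied here were the genes whose pathway annotation in the Rela table names the KEGG ribosome entry. They were 49 of the 7224 gene symbols in that table, of which 2655 carried any KEGG annotation. Their promoter regions, defined as accessible regions centred within 2500 bp of the assigned transcription start, numbered 49 of 8061 promoter regions in the Rela table and, matched by symbol, 15 of 2671 in the Kindlin-2 table. The 49 regions belonged to 48 symbols, because Rpl36a appeared under separate gene records on chromosome 12 and chromosome X, and Rpl39l had regions only beyond 2500 bp. RefSeq names the chromosome 12 record Rpl36al, a paralog of the X-linked gene.

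Accessibility was measured by ATAC-seq: Tn5 transposase inserts sequencing adapters where chromatin is open, so that regions with more fragments are more accessible. The Rela pair was Rela wt and Rela K.O., both of the embryo fibroblast line 3T3, and the other pair was Kindlin-2 floxed and Kindlin-2 K.O. fibroblasts from kidney, all 4 at passages 15 to 20 with 50000 cells per library. Rela encodes a transcription-activating subunit of NF-kB, and Kindlin-2 is an integrin-binding adaptor. How the alleles were deleted, and whether each line is a single clone, is not given in the sources used here. Each genotype had 1 column of values, although the design text gives 2 biological replicates, so differences could not be checked across replicates and no p-value is given. The targeted genes were not analysed here.

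Ribosomal proteins wrap and stabilise the ribosomal RNAs of the large and small subunits. Cytosolic ribosomes use the Rpl and Rps families, and mitochondria build their own ribosomes from the nuclear-encoded Mrpl and Mrps families. Cytosolic ribosomal protein genes are housekeeping genes, and many of their transcripts begin with a C followed by a run of pyrimidines, the 5′ terminal oligopyrimidine (TOP) tract through which mTORC1 signalling controls their translation.

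The windows below show the promoter sequence around the start, from 60 bases before it to 20 bases after, for promoters whose accessibility results are described further on. Sequence is from RefSeq (GRCm38.p6), 5′ to 3′ on the gene's strand. Capitals mark matches to the searched motifs, in either orientation except for TOP tracts: CCGGAAG for ETS/GABP factors, GGGCGG for Sp1 and KLF factors, the CCAAT box, the TATA box and the palindrome bound by ZBTB33. Rpl38 (chr11:114668520-114668599, plus strand), Rpl28 (chr7:4792905-4792984, plus) and Rpl22l1 (chr3:28805448-28805527, plus) were more accessible in the Rela knockout. Rplp0 (chr5:115559407-115559486, plus), Rps23 (chr13:90923062-90923141, plus) and Rsl24d1 (chr9:73113409-73113488, plus) were less accessible. The accessible regions of Rpl28 and Rps23 lie upstream of the RefSeq start and do not reach it, though that of Rpl28 spans the assigned start. Rps6 (chr4:86857348-86857427, minus) and Rpl37 (chr15:5116553-5116632, plus) stayed within 2-fold.
Rpl38: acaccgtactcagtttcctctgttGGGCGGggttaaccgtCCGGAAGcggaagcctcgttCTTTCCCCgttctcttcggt
Rpl28: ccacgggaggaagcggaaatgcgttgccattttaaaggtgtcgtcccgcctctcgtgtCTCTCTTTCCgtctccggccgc
Rpl22l1: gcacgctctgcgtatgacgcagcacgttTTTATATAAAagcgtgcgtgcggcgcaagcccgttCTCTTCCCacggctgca
Rplp0: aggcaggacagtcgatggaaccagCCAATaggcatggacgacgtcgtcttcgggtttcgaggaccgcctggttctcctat
Rps23: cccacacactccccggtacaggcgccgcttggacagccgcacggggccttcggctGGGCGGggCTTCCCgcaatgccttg
Rsl24d1: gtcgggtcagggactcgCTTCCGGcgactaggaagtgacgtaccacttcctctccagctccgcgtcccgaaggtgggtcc
Rps6: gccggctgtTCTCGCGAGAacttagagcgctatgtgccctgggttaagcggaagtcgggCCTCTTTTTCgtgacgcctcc
Rpl37: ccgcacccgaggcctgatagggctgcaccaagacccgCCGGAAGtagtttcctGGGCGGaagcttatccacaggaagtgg
A TOP tract stands at the start of Rpl38, Rpl28 and Rpl22l1, and also of Rps23 and Rps6.

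In 3T3 cells, ribosomal protein promoters passed a 2-fold difference between the Rela genotypes at a share near that of promoters in general, in both directions. Values are the deposited normalized signal per region, on a scale shared by the columns of a table. The change is log2((knockout + 1)/(control + 1)), and regions with a log2 ratio of 1 or more in either direction, equal to 2-fold, were called higher or lower. By that measure 4 of the 49 promoters (8.16%) were higher in the knockout and 5 (10.2%) were lower, beside 13.0% and 13.1% of all promoters (26.1% in either direction). Centring each region on its 50 nearest neighbours gave 2 higher and 4 lower, beside 11.1% and 9.47% of all promoters. The higher ones were then Rpl38 and Rps26 (23 and 36), which was at a log2 ratio of 0.62 before centring, and the lower ones were Rps23, Rplp0, Rpl13 and Rpl21. The other 40 (81.6%) stayed within 2-fold, beside 73.9% of all promoters.

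The median log2 ratio of the 49 promoters was -0.06, with quartiles at -0.41 and 0.30. For all promoters the median was -0.03 and the quartiles were -0.57 and 0.53. The knockout value was above wild type at 22 promoters, below it at 26 and equal at 1, beside 3837, 4097 and 127 of all 8061 promoters. Summed over the 49 promoters, signal was 2775 in wild type and 2771 in the knockout, a ratio of 0.999 (0.952 to 1.05, 95% interval). All intervals here are exact and cover counting error alone. The same ratio over all promoters was 1.04. The summed accessibility of the family thus differed little between the genotypes, while single promoters ranged from -1.75 to 1.55 on the log2 scale.

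**Figure D1:**
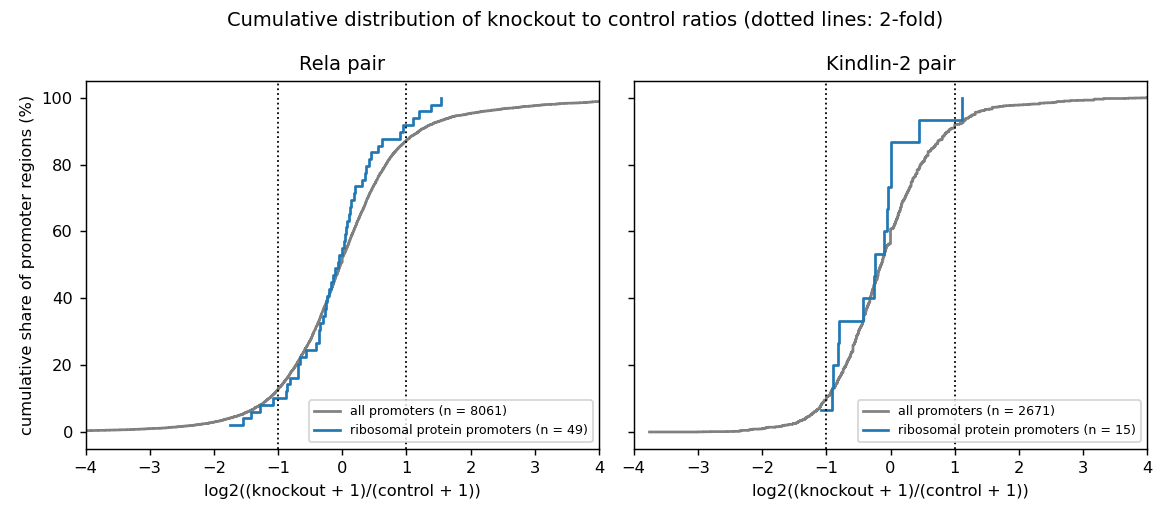
Cumulative share (%) of promoter regions at or below each log2((knockout + 1)/(control + 1)), for ribosomal protein promoters (blue) and all promoters (grey), in the Rela pair (left) and the Kindlin-2 pair (right); dotted lines mark 2-fold. In the Rela pair the blue curve spans -1.75 to 1.55 and crosses the middle near 0, as the grey curve does.

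The 4 promoters with higher signal in the Rela knockout comprised those of both cytosolic subunits and of a paralog. Rpl38, a large-subunit protein needed for translation of some Hox transcripts in the embryo, had 36 in wild type and 107 in the knockout. This was 2.97-fold higher (2.12 to 4.19), and it was the single ribosomal protein promoter of the Rela pair whose counting interval lay wholly beyond 2-fold, beside 10.3% of all promoters. Its region was 967 bp wide and centred 317 bp inside the gene, and none of the 4 other regions within 100000 bp passed 2-fold.

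Rpl28, also a large-subunit protein, had 17 in wild type and 46 in the knockout, 2.71-fold higher (1.61 to 4.52). Its surroundings were higher too: 4 of the 6 other regions within 100000 bp passed 2-fold upward, with a median log2 ratio of 1.86. Centred on its 50 nearest neighbours, the log2 ratio of Rpl28 moved from 1.38 to 0.36.

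Rps14, a small-subunit protein, had 41 in wild type and 95 in the knockout, 2.32-fold higher (1.66 to 3.24). Rpl22l1, a paralog of the large-subunit gene Rpl22, had 59 and 128, 2.17-fold higher (1.65 to 2.89). Rpl22l1 was no longer past 2-fold with either local scaling, with a log2 ratio of 0.57 after centring on its chromosome and 0.28 after centring on its neighbours. Rps14 came to lie just inside the threshold, at 0.95 and 0.99. The region of Rpl22l1 also holds the start of the noncoding gene Gm32950 on the opposite strand, so its signal cannot be assigned to 1 of the genes.

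The 5 promoters with lower signal in the knockout were Rps23, Rplp0, Rpl13, Rsl24d1 and Rpl21. Rps23, a small-subunit protein near the decoding centre, had 36 in wild type and 10 in the knockout, 3.60-fold lower (1.79 to 7.36). The region ended before the RefSeq start, so it covers upstream DNA and not the bases printed above. Centred on its chromosome, its log2 ratio moved from -1.75 to -0.96.

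Rplp0, the scaffold of the stalk on which translation factors dock and a common reference gene for expression assays, had 34 in wild type and 11 in the knockout. This was 3.09-fold lower (1.57 to 6.19), with the region centred 29 bp from the start. Of the 4 other regions within 100000 bp of it, 1 was higher and 1 was lower by 2-fold. Rplp1, its partner in the stalk, had 32 and 35 and stayed within 2-fold.

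Rpl13, a large-subunit protein, had 34 and 12, 2.83-fold lower (1.48 to 5.55). Its region lay 1872 bp upstream, outside any RefSeq gene, and 4 of the 5 other regions within 100000 bp were higher by 2-fold. It therefore moved against its surroundings, and it is not a measurement of the Rpl13 start itself.

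Rsl24d1, an assembly factor of the large subunit that holds the place later taken by a ribosomal protein, had 67 and 27, 2.48-fold lower (1.64 to 3.98). Rpl21, a large-subunit protein, had 86 and 40, 2.15-fold lower (1.51 to 3.14). Centred on neighbouring regions, Rsl24d1 was at a log2 ratio of -0.82 and Rpl21 at -1.54. Rpl21, Rplp0 and Rpl13 remained past 2-fold under each pseudocount and scaling tried.

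Promoters just inside the threshold showed that the 2-fold line does not divide the family into separate groups. Mrps15, of the mitochondrial small subunit, had 61 in wild type and 115 in the knockout, a log2 ratio of 0.90. On the other side, Rpl10 had 138 and 75, at -0.87, and Rpl41 had 37 and 20, at -0.86. The counting interval lay wholly above 1 at 7 of 49 promoters and wholly below 1 at 12, beside 26.5% and 26.3% of all promoters. The promoters nearest the family's median were Rpl35 (47 and 45), Rpl27 (31 and 30) and Mrpl36 (27 and 25). The Rpl35 region lay 2439 bp upstream of that gene and covers the RefSeq edge of its neighbour Arpc5l.

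**Figure D2:**
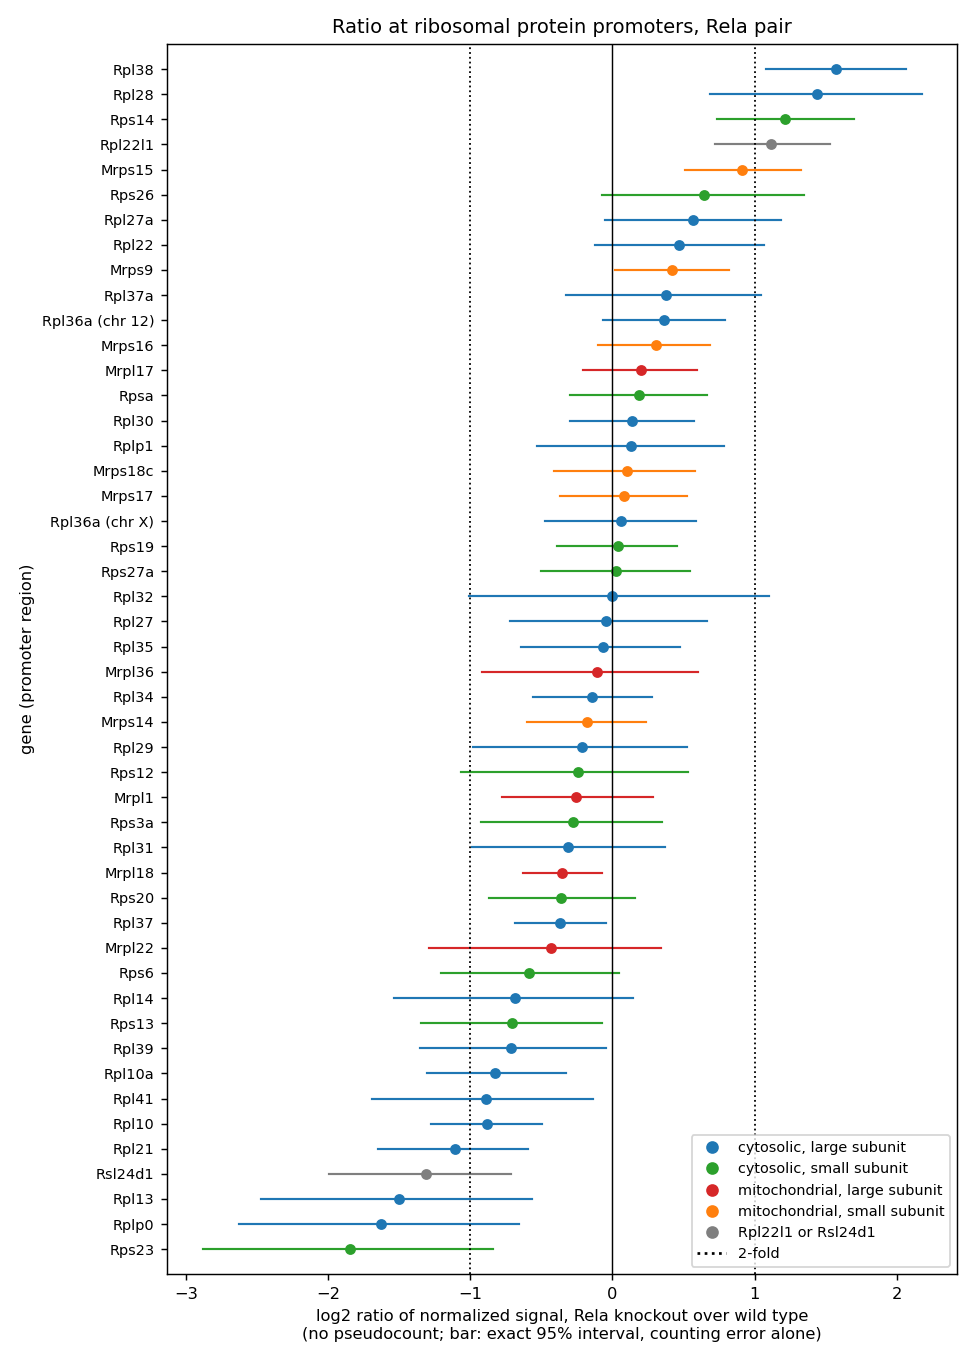
Ratio of Rela knockout to wild-type signal at 48 of the 49 ribosomal protein promoters on a log2 axis, with points coloured by class of gene, bars giving the exact 95% counting interval and dotted lines at 2-fold. The bar of Rpl38 alone lies wholly beyond a dotted line.

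Cytosolic and mitochondrial genes were described apart, since they build separate ribosomes. Among 36 cytosolic promoters, 3 were higher and 4 lower, with a median log2 ratio of -0.10 and shares of 8.33% and 11.1% beside 13.0% and 13.1% of all promoters. Their summed signal went from 1826 to 1748, a ratio of 0.957 (0.902 to 1.02). The large subunit had 2 higher and 3 lower of 25, and the small subunit 1 higher and 1 lower of 11. Of the 11 mitochondrial promoters 0 passed 2-fold, beside 26.1% of all promoters in either direction, and their median was 0.08. With so few promoters nothing is read from that difference.

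Within the mitochondrial ribosome, the subunits had opposite summed differences. The small-subunit promoters summed to 425 in wild type and 521 in the knockout, a ratio of 1.23 (1.09 to 1.38). On the log2 scale 5 of 6 were above 0, beside 3837 of all 8061 promoters. The large-subunit promoters summed to 398 and 347, a ratio of 0.872 (0.763 to 0.996), with 4 of 5 below 0, beside 4097 of all 8061. With centring on neighbouring regions these counts became 4 of 6 above and 2 of 5 below 0, so the direction of the large subunit depends on the scaling. Mrps15 (61 and 115) made up most of the small-subunit difference, and Mrpl18 (207 and 162) most of the large-subunit difference.

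Over the whole family, absolute levels were near the middle of all promoters, although the classes differed. The median ribosomal protein promoter stood at percentile 47.0 of all promoters in Rela wild type and 45.4 in the Rela knockout. The family's regions were somewhat narrow, with a median of 478 bp beside 512 bp, and per kb of region the percentiles were 58.7 and 56.6. Cytosolic promoters had median percentiles of 38.7 in wild type and 41.1 in the knockout, or 56.5 and 52.2 per kb. The 11 mitochondrial ones had 62.3 and 66.8, or 75.6 and 84.8 per kb. In wild type, 3 of 49 promoters lay in the top 25% of all promoters and 7 in the bottom 25%. In the knockout, 10 lay in the top and 11 in the bottom, so the spread of levels was wider there.

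Mrpl18, of the mitochondrial large subunit, had the highest signal of the family, with 207 in wild type and 162 in the knockout, or 364 and 285 per kb. Its region also holds the start of Tcp1, a chaperonin subunit gene on the opposite strand. Rpl37 was next at 160 and 124, or 234 and 181 per kb, and Rpl10 had 138 and 75. Mrps16 had 81 and 100. The weakest region was that of Rpl32, at 14 in both genotypes over 192 bp, with 72.9 per kb. Rplp0, Rpl13, Rps23, Mrpl22 (27 and 20) and Rpl14 (29 and 18) were the next weakest, and per kb Mrpl36 was lowest at 43.2 and 40. Without replicates, neighbours in this order cannot be told apart beyond counting error.

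**Figure D3:**
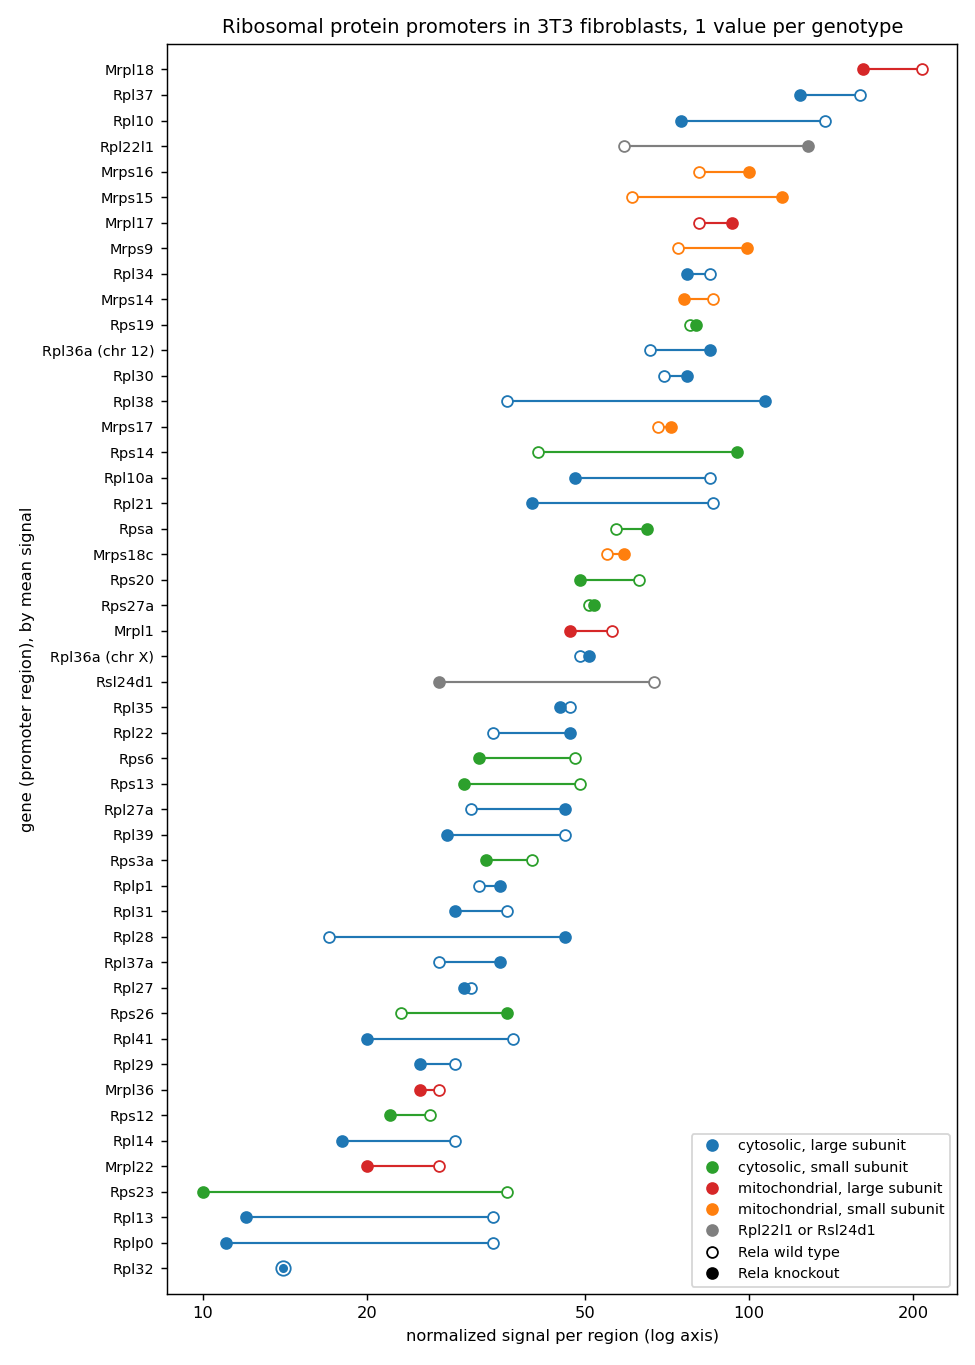
Normalized signal per region (log axis) at 48 of the 49 ribosomal protein promoters of the Rela pair, ordered by mean signal, with open circles for wild type, filled circles for the knockout and colours for the class of gene. Mrpl18 is at the top with 207 and 162 and Rpl32 at the bottom with 14 in both genotypes.

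Ribosomal protein promoter regions sat close to their starts. The median distance of the region's centre was 72 bp, beside 165 bp for all promoters of the Rela table, and 27 of 49 (55.1%) were within 100 bp, beside 35.4%. The centre lay downstream of the start at 15 (30.6%), beside 48.2% of all promoters. Starts in the RefSeq promoter table placed a second gene on the opposite strand in 6 of 49 regions: besides Rpl22l1 and Mrpl18 these were Rpl22 with 9430083M05Rik, Mrps18c with Helq, Rps13 with Gm10589, and the chromosome 12 Rpl36a record with Mgat2. Of these 6, Rpl22l1 alone was past 2-fold. Edges of further RefSeq genes lay in the regions of Rps20 (Gm32823), Rps27a (Clhc1), Rpl37 (Card6) and Rpl35 (Arpc5l).

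In kidney fibroblasts, the 15 ribosomal protein promoters of the Kindlin-2 table mostly had weak signals, from 8 to 53, and wide counting intervals. Of these, 1 (6.67%) was higher in the knockout and 1 lower by 2-fold, beside 9.06% and 10.6% of all promoters (19.6% in either direction). With chromosome or neighbour centring there were 0 higher, beside 7.75% and 7.94% of all promoters, and 2 lower, beside 9.66% and 10.3%. With loess or quantile scaling there were 1 higher, beside 4.19% and 5.17%, and 2 lower, beside 9.77% and 11.8%. Summed signal went from 327 to 264, a ratio of 0.807 (0.676 to 0.967), beside 0.761 over all promoters of this table. The sums over all promoters hold values up to 10620 in floxed and 3726 in knockout cells, so the strongest regions weigh heavily on that ratio. The median log2 ratio was -0.24, beside -0.15. Of the 15 promoters, 2 were above 0, 11 below and 2 at 0, beside 1047, 1504 and 120 of all 2671. The sums of the classes are given below.

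The higher promoter was the chromosome 12 Rpl36a record, with 11 in floxed and 25 in knockout cells, 2.27-fold higher (1.004 to 5.89). Its interval was the only one of the 15 wholly above 1, beside 4.04% of all promoters. It fell inside 2-fold after centring on its chromosome, at a log2 ratio of 0.57. The lower promoter was Mrps9, of the mitochondrial small subunit, with 18 and 8, 2.25-fold lower (0.850 to 6.16). The interval of Mrps9 includes 1 and that of Rpl36a nearly reaches it, so at this depth neither ratio is well separated from 1. All Kindlin-2 intervals also rest on an assumed scale of 1 count per unit of signal in the knockout column. A limit as close to 1 as 1.004 is therefore uncertain.

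All 5 mitochondrial promoters had a value in the Kindlin-2 knockout below the floxed one, as did 1504 of all 2671 promoters. Mrps9 alone passed 2-fold. The summed signal of the 5 went from 138 to 89, a ratio of 0.645 (0.481 to 0.870). The ratio of 0.761 over all promoters lies inside that interval. With loess, quantile, chromosome or neighbour scaling, 4 of 5 were below 0. Mrpl18 had 53 in floxed and 28 in knockout cells, with a ratio of 0.528 (0.313 to 0.879). It was the only promoter of the 15 with an interval wholly below 1, beside 12.8% of all promoters. Mrps14 had 27 and 15, Mrpl17 14 and 13, and Mrps16 26 and 25. The difference was thus carried by Mrpl18, Mrps14 and Mrps9, while Mrpl17 and Mrps16 were nearly equal. It did not extend to ribosomal protein symbols outside the KEGG entry, most of them mitochondrial, whose 9 promoters summed to 154 in floxed and 177 in knockout cells. Of these 9, 0 passed 2-fold, beside 19.6% of all promoters in either direction, and their median log2 ratio was 0.17.

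The 9 cytosolic promoters summed to 155 in floxed and 150 in knockout cells, and the ratio was 0.968 (0.753 to 1.24). The ratio of 0.761 over all promoters lies inside that interval as well. The interval also overlaps that of the mitochondrial promoters, so no difference between the classes is read from these sums. Rpl37 had 45 and 44, and Rps20 had 16 and Rps27a 12 in both genotypes. Rpl34, with 16 and 8, and Rpl30, with 22 and 12, were lower by less than the threshold on the log2(value + 1) scale. Rpl41 had 12 and 10, Rps23 11 and 9, and Rps14 10 and 14. The paralog Rpl22l1 had 34 and 25. Per kb, Mrpl18 (174 and 92.1) and Rpl37 (101 and 98.9) led the family here, as they did in the Rela table, and Rps23 (43.7 and 35.7) was lowest.

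**Figure D4:**
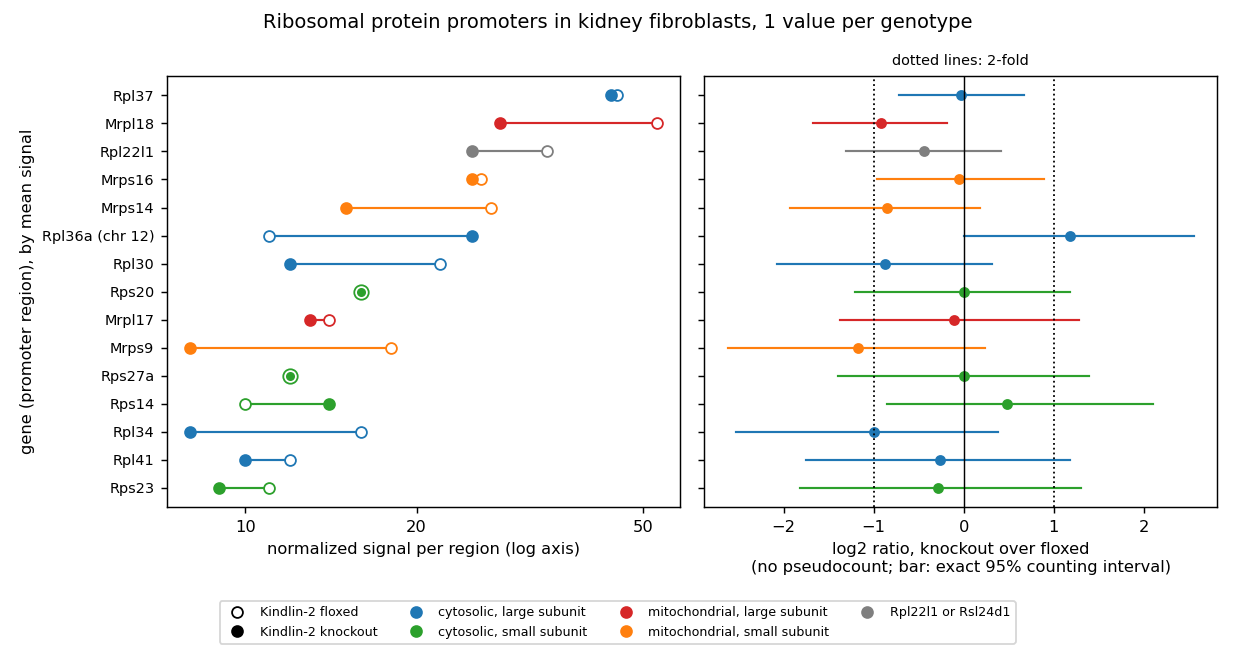
Normalized signal per region (log axis, left) and log2 ratio of Kindlin-2 knockout to floxed signal with its exact 95% counting interval (right) at the 15 ribosomal protein promoters of kidney fibroblasts, with open circles for floxed, filled circles for knockout and colours for the class of gene. The interval of Mrpl18 lies wholly below 0 and that of Rpl36a on chromosome 12 nearly touches it from above. The intervals assume 1 count per unit of signal in the knockout column.

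All 15 promoters measured in the Kindlin-2 table overlapped the same gene's region in the Rela table, and 12 lay wholly inside it. The genes were chosen from the Rela table, so a region there for each gene followed from the choice. Nothing about the family is read from this overlap. The pairs do not share samples, and their signals were normalized separately. The knockout was above its control in both pairs at 2 promoters (Rps14 and the chromosome 12 Rpl36a record) and below it in both at 6. At 5 promoters the signs were opposite, and at 2 the value was equal in the Kindlin-2 pair. Among all 2356 promoters of 1 gene record that overlap between the tables, 19.1% were above in both, 28.4% below in both and 47.0% opposite. At 10 of 15 the difference stayed within 2-fold in both pairs, beside 70.1%. Of the 15, 0 passed 2-fold in both, beside 2.97%: Rps23, 3.60-fold lower without Rela, had 11 and 9 in the Kindlin-2 pair, and Rpl22l1, 2.17-fold higher without Rela, had 34 and 25. The regions of these 2 genes overlap only in part between the tables, by 92 bp for Rps23 and 265 bp for Rpl22l1. Their values in the pairs thus come from partly different DNA.

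The tables held promoter regions for only some ribosomal protein genes. Of 77 cytosolic ribosomal protein symbols in RefSeq, 34 (44.2%) had one in the Rela table and 10 (13.0%) in the Kindlin-2 table. Of 78 mitochondrial symbols, 23 (29.5%) and 13 (16.7%) did, and of all 21896 protein-coding symbols 28.5% and 10.3% did. The mitochondrial count exceeds the 11 promoters above because it includes symbols outside the KEGG entry. Of 13 ribosomal protein promoters outside that entry in the Rela table, 0 were higher and 2 lower, beside 13.0% and 13.1% of all promoters. The lower ones were Mrps25 (31 and 9) and Mrps35 (38 and 10), both of the mitochondrial small subunit. With neighbour centring Mrps25 was at -0.91. Their differences ran against the summed small-subunit increase of the annotated genes.

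Promoter sequence was available as RefSeq windows of 300 bases, from 250 before the start, for 40 of the 49 gene records, and 38 windows overlapped the gene's own region. Shares are given beside the 7349 windows that overlap any Rela region and all 32851 windows, with every motif but the TOP tract searched on both strands. The ETS/GABP motif CCGGAAG was in 16 of 40 windows (40%), beside 20.7% of windows over a region and 8.86% of all. A TOP tract, defined as a C followed by at least 4 pyrimidines and starting within 5 bases of the start on the gene's strand, was in 15 (37.5%), beside 19.7% and 18.3%. The palindrome bound by ZBTB33 was in 2 (5%), Rps6 and Rps19, beside 1.40% and 0.466%. In the shorter window from 100 bases before the start the ETS/GABP share was 22.5%, beside 15.3% of windows over a region.

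The TATA box (TATAAA) was in 5 windows (12.5%, beside 5.91% of windows over a region and 13.6% of all), Rplp0 and Rpl22l1 among them. Sp1/KLF, CCAAT and MYC matches were near the share of open promoters. The Sp1/KLF motif was in 30 windows (75%, beside 69.9%), the CCAAT box in 17 (42.5%, beside 44.8%) and CACGTG, the MYC E-box, in 4 (10%, beside 9.82%). The NF-kB consensus motif was in 0 of 40 windows, beside 0.204% of windows over a region. Matches to AP-1 (TGAGTCA), YY1 (AAGATGGC) and the NRF1 palindrome were each in 1 window (2.5%), beside 4.63%, 4.33% and 2.26% of windows over a region. The windows were those of Rpl22, Mrpl36 and Rpl37a. Letters alone do not show binding, and the absence of a match in these windows says nothing of the factor.

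Base composition set the windows apart from all promoters and less from open ones. Median GC content was 58.8%, beside 62.3% for windows over a region and 52.7% for all windows. The ratio of observed to expected CpG was 0.865, beside 0.795 and 0.384, and 34 of 40 windows (85%) met a CpG-island-like criterion, beside 75.2% and 33.3%.

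**Figure D5:**
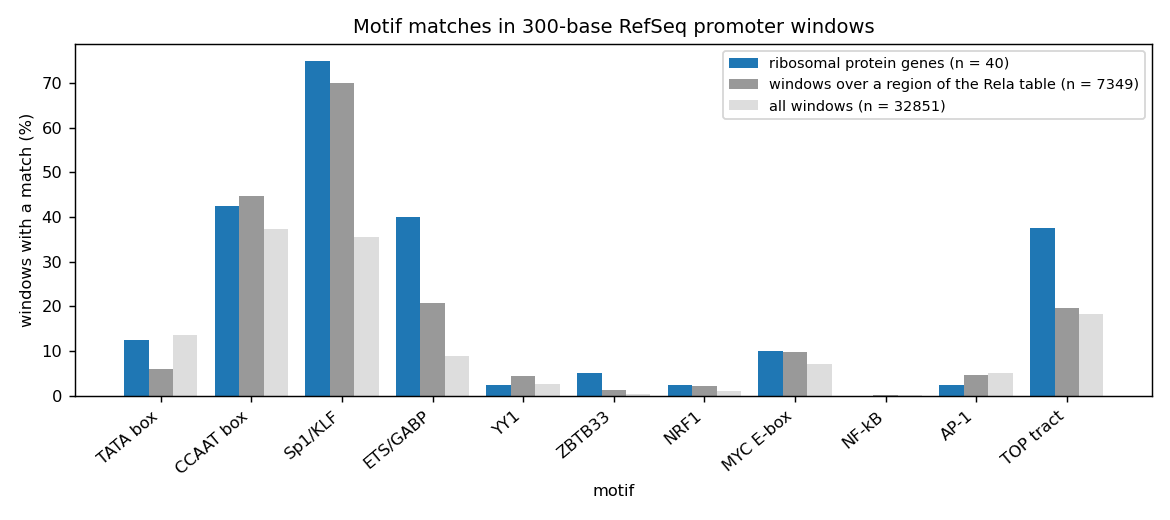
Share (%) of 300-base RefSeq promoter windows with a match to each motif, for the 40 ribosomal protein windows, the 7349 windows that overlap a Rela region and all 32851 windows. Ribosomal protein windows stand at 40% for ETS/GABP and 37.5% for the TOP tract, beside 20.7% and 19.7% of open windows.

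Genes that make or run the ribosome were described from lists written from knowledge of the pathway, with the mean log2 ratio of each gene's promoter regions. For scale, 13.0% of all promoters in the Rela pair were higher by 2-fold and 13.1% lower. In the Rela pair, 5 of 15 RNA polymerase I genes were measured, and Polr1b, the second-largest subunit of the enzyme that transcribes ribosomal RNA, had 53 in wild type and 17 in the knockout. Of 38 measured ribosome biogenesis genes, 2 were higher and 4 lower, Rsl24d1 among the latter, with a median of 0.02. The helicase gene Ddx18 (33 and 77) and Utp18 (89 and 194) were higher, and Utp20 (53 and 19), the exosome nuclease gene Dis3 (104 and 47) and the snoRNP core gene Nop56 (80 and 38) were lower. Centred on neighbouring regions, Ddx18 (0.87), Utp20 (-0.94), Nop56 (-0.58) and Rsl24d1 (-0.82) no longer passed 2-fold.

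The 22 measured initiation factor genes in the Rela pair had a median of 0.10. Of these, 0 were higher and 4 lower, beside 13.0% and 13.1% of all promoters. They were Eif4ebp2 (31 and 9), a repressor of cap-dependent initiation, Eif2s2 (42 and 13), Eif3m (88 and 35) and Eif2b2 (42 and 19). Eif4ebp2 (-0.84) and Eif3m (-0.99) came inside 2-fold with neighbour centring. The elongation and termination list also held Mtif2, a mitochondrial initiation factor gene, and Eef1e1, a gene of the tRNA synthetase complex. Of its 8 measured genes, Gfm1 (23 and 59) and Abce1 (44 and 111) were higher and Eef1e1 (109 and 28) and Mtif2 (33 and 13) lower. With neighbour centring Mtif2 alone of these passed, while Eef1e1 went from -1.92 to -0.33, Abce1 from 1.32 to 0.51 and Gfm1 from 1.32 to 0.98. Among 11 other TOP genes, Rack1, a scaffold protein of the small subunit, was higher (44 and 105) and Nap1l1 lower (105 and 49). Of 13 measured genes on the mTORC1 list, which also held Rps6ka2, 2 were lower: the Ragulator gene Lamtor4 (111 and 48) and Rragb (106 and 10), a Rag GTPase. Nap1l1 (-0.61) and Lamtor4 (-0.73) came inside 2-fold with neighbour centring, and Rack1 and Rragb did not. The medians of these lists lay between -0.18 for the mTORC1 pathway and 0.30 for the elongation and termination list, apart from RNA polymerase I. The 5 RNA polymerase I genes had a median of -0.71.

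In the Kindlin-2 pair, 9.06% of all promoters were higher by 2-fold and 10.6% lower. Of 6 other TOP genes, 3 were lower: Pabpc1, the cytoplasmic poly(A)-binding protein (19 and 4), Nap1l1 (69 and 26) and Tpt1 (30 and 13). Their list had a median of -0.94, beside -0.24 for the ribosomal protein promoters. Of 15 biogenesis genes 3 were higher and 1 lower. Ncl, encoding nucleolin, had 7 and 17, Krr1 12 and 28, and Sbds 11 and 3. Pno1 had 0 and 8, which is 1.96-fold higher when the floxed column is set to a floor of 3 counts. The exact interval of Pno1 starts lower, at 1.25, and with loess scaling its log2 ratio was -0.15, so that its direction depends on the scaling and the list had 2 higher and 2 lower. Among initiation factors Eif3a was lower (14 and 5), as was Sesn1 (34 and 16) of the mTORC1 pathway, which loess scaling brought to -0.84. Neighbour centring brought Sesn1 to -0.78 and left Tpt1 at the edge of 2-fold, at -0.998. With values this low, the intervals of Ncl, Sbds and Eif3a included 1.

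The fibroblast label was checked against markers. Of 14 fibroblast markers, 8 had a promoter region in the Rela table, summing to 351 in wild type and 447 in the knockout. The 8 did not move together: S100a4 (46 and 133), Fbln1 (12 and 29) and Postn (10 and 22) were higher by 2-fold and Dpt (23 and 8) lower. All promoters had shares of 13.0% and 13.1%. With neighbour centring S100a4 (0.89) and Dpt (-0.71) came inside 2-fold. The Postn and Dpt regions lay 2484 and 1924 bp from the start. Of 8 epithelial markers 2 had one (10 and 26 summed), of 4 leukocyte markers 2 (34 and 40), and of 4 endothelial markers 0. In the Kindlin-2 table the promoters of Fn1 (26 and 12) and of 0 epithelial, leukocyte or endothelial markers were measured. The part of other cells in the results above was not tested. Table sums were 1386832 in Rela wild type and 1458609 in the Rela knockout, and, outside the mitochondrial genome, 134996 in Kindlin-2 floxed and 114217 in Kindlin-2 knockout cells.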

How the data were processed

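ATAC-seq libraries of 4 genotypes were described in 2 tables on mouse build mm10, with 1 value column per genotype. Per the submitters' processing notes, which give no roles or order, STAR 2.4.2a, Trimmomatic 0.33, Picard 1.136, FastQC, bedtools, deepTools, MACS2 and DESeq2 were used. For read shifting, duplicates and region calling no method is given in the sources used here. The deposited values are a score: background-corrected signal, normalized by the authors with the DESeq method and rounded, per the labels. Tables were normalized separately, so levels were not compared between them. No source says how the 2 biological replicates were combined. Region positions were used as deposited.

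Regions with a mean of at least 1 were kept, which all member promoters passed. Ratios used a pseudocount of 1, which understates changes of weak regions. The planned limma fits need replicate columns and were replaced by the planned descriptions. Counting intervals are Clopper-Pearson 95% intervals from counts implied by the spacing of whole values, with factors of 0.683 for Rela wt, 0.949 for Rela K.O. and 1.36 for Kindlin-2 floxed. For Kindlin-2 K.O. the best factor explained only 40.7% of the pattern, so 1 was used and its depth is uncertain. The ratio and interval code was tested on simulated data. The median implied count per region was 49.8, 36.9, 11.8 and 16.0 in the order above.

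The members and gene lists were chosen with earlier results of these data known. Named genes were Rplp0; members past 2-fold in either pair; members in both tables; the 5 strongest and 5 weakest promoters per table; the 3 nearest the median per pair; and up to 4 genes past 2-fold per list. Members just inside 2-fold, Rplp1, and the mitochondrial and sequence examples were chosen after their values were seen. List genes were matched by symbol, or by an older symbol where RefSeq does not use the name for another gene. The results of 1 member are not reported by name or plotted singly here, but it is in all counts, sums and medians. Analyses used Python 3.11.15, pandas 2.3.3, numpy 2.4.6, scipy 1.17.1, statsmodels 0.14.6 and matplotlib 3.10.9. Pseudocounts, filters, scalings, promoter windows and motif windows were varied.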

Additional observations from a re-analysis of the deposited data

Results flagged for a closer look

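Rpl39l, a paralog of Rpl39 known for its expression in testis, had no promoter region and entered no comparison above, but both of its regions in the Rela table had signal in the knockout well above the wild-type level. The region 4419 bp upstream of the start (chr16:10165607-10166007) had 1 in wild type and 77 in the knockout, a ratio of 77 (19.6 to 4500, counting interval). The region 2789 bp downstream, inside the gene (chr16:10172818-10173211), had 2 and 48, a ratio of 24 (7.64 to 118). The regions lie within 100000 bp of each other, and the 1 further region in that span had a log2 ratio of 3.17. The wild-type values of 1 and 2 are near the floor, so the sizes of both Rpl39l ratios are uncertain. With the pseudocount the log2 ratios of Rpl39l were 5.29 and 4.03, and among all promoters of the Rela pair values reached 6.83. The share of regions beyond 2500 bp that changed as much was not worked out.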

How the results depend on the processing

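No leave-one-out and no paired analysis was possible because each genotype had 1 value column. Of the alternative values of the main results, 81 stayed within the set limits and 17 moved; for single promoters 204 stayed and 11 moved, and no ribosomal protein promoter past 2-fold changed sign. In the Rela pair, a fold of 1.5 gave 7 higher and 11 lower, neighbour centring gave 2 higher, and the wild-type percentile per kb was 58.7. In the Kindlin-2 pair, the count of higher promoters was 0 with a pseudocount of 5, chromosome centring and neighbour centring. The count of lower promoters was 5 with a fold of 1.5, 0 with a pseudocount of 5, and 2 with loess, quantile, chromosome or neighbour scaling. Mrps14 passed under the centrings (-1.07 in each), Rpl34 under loess (-1.04) and quantile scaling (-1.28). In the Kindlin-2 pair loess moved the median of the 3 measured genes of the elongation and termination list from 0.22 to 0.51. It moved that of initiation factors from 0 to -0.67 and of the mTORC1 list from -0.26 to -0.72. From 100 bases before the start, shares were 57.5% for Sp1/KLF, 22.5% for ETS/GABP and 2.5% for the MYC E-box, as the shorter window holds fewer bases; for the other changes the cause was not tested. No scaling moved the median of all regions by over 0.1. Kindlin-2 values rest on low counts. Intervals leave out culture-to-culture variation and errors of the background correction.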

Other observations

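A second symbol match to Rpl41 lay on chromosome 14 under a gene record that RefSeq does not list as Rpl41, with the annotated pseudogene Gm10076 between its regions. In the Rela table its regions had 85 in wild type and 55 in the knockout, and 51 and 39, at 3185 and 2665 bp from the start. The Kindlin-2 table held 1 of them, with 18 in floxed and 28 in knockout cells. Rpl32 had another region 4993 bp from its start, with 18 and 14 in the Rela pair. It lies within the RefSeq gene Cand2.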
